A study of Mus musculus with 6 samples.

Results

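The 40 genes described here encode the contractile apparatus, the calcium machinery and the fuel and oxygen supply of skeletal muscle fibres. They were taken from a list of fibre genes, and the brightest probe set that the platform annotation gives to 1 gene stood for each. All 40 were measured, among 19938 genes on the array, and they comprised 14 genes of fast fibres, 8 of slow fibres and 18 shared by both. The 3 classes follow textbook knowledge of which fibres use each gene copy, and a gene of 1 fibre class can also be made in the other.

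Expression was measured in FITC-treated ear skin of 3 CLEC4C-DTR mice (genotype CLEC4C-DTR/+) and of 3 littermate controls, 1 mouse and 1 right ear per array, at 10 to 12 weeks of age. CLEC4C encodes a lectin found on plasmacytoid dendritic cells in humans, and DTR is a receptor that makes mouse cells sensitive to diphtheria toxin. Mice of both groups received 200 ng of the toxin on days -1, 1, 3 and 5. The contact sensitiser FITC (fluorescein isothiocyanate, 0.5%) was painted on the abdomen on days 0 and 2 and on the ear on day 6. RNA came from the whole skin of the ear, so the muscle genes report on whatever muscle each piece of tissue held, and fewer fibres cannot be told apart from less RNA per fibre. Unchallenged ears and mice without toxin were not analysed here, and the labels do not give the time from challenge to collection. Values are log2 values normalised by the authors with RMA, differences are CLEC4C-DTR minus littermate control on that scale, and a gene was called when limma's p, adjusted over all 19938 genes, was under 0.05.

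Skeletal muscle shortens when myosin heads of the thick filament pull on actin of the thin filament inside the sarcomere, the repeating unit bounded by Z discs. Calcium released from the sarcoplasmic reticulum binds troponin and thereby frees the actin sites for myosin. Fast and slow fibres build much of the same machine from different gene copies, among them those of myosin heavy and light chains and troponins. The external ear of the mouse carries small striated muscles, and the dermis around them contributes smooth muscle of vessels and hair follicles.

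Muscle genes were lower in CLEC4C-DTR ears, and of the 40 genes 11 fell, none rose and 29 did not pass. Across all genes, 4.31% were called lower and 5.01% higher (860 and 998 genes, or 644 and 1150 with each array centred on its median). The genes that fell were Mylpf, Casq1, Myh1, Tnni2, Tnnt3 and Myl1 of fast fibres, Tnni1 of slow fibres, and Trdn, Neb, Mb and Tpm1 of the shared class, by 1.34-fold to 2.09-fold. The median difference over the 40 genes was -0.56, a 1.48-fold lower level, and the median over all genes was -0.04. The values were lower in CLEC4C-DTR ears for 39 genes, and Sln was the exception. In 27 genes all 3 CLEC4C-DTR values lay below all 3 control values, a pattern found in 19.0% of all genes. Without limma's adjustment, 29 of the 40 had a p under 0.05 toward lower values, against 15.1% of all genes. In a separate fit of the 9969 genes brighter than the median gene, with p adjusted over those alone, 15 of 35 muscle genes were called lower, against 8.38% of the genes fitted. These 15 were the same 11 with Eno3, Mybpc1, Myh2 and Ttn.

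**Figure D1:**
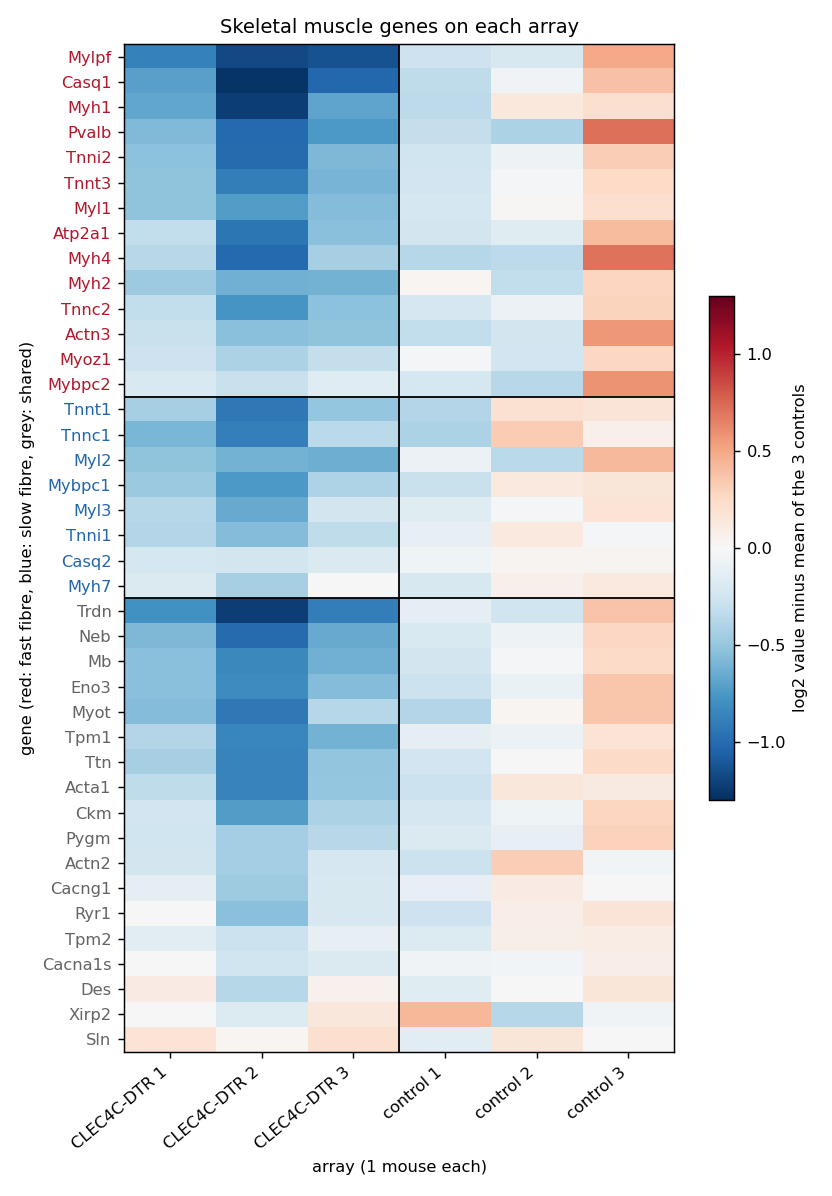
Log2 value of each of the 40 muscle genes on each array, given as the value minus the mean of the 3 littermate controls (blue lower, red higher), with genes grouped as fast fibre, slow fibre and shared, and arrays of 1 mouse each in columns. CLEC4C-DTR replicate 2 held the lowest value of 36 genes and control replicate 3 the highest value of 32.

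The lowest and the highest value came from the same arrays in most genes, and the arrays between them changed order. CLEC4C-DTR replicate 2 gave the lowest value of 36 of the 40 genes, and littermate control replicate 3 gave the highest value of 32. The mean of the 40 genes, set against the mean of the controls, was -0.37, -0.70 and -0.43 in CLEC4C-DTR replicates 1, 2 and 3, and -0.20, -0.05 and 0.25 in control replicates 1, 2 and 3. The calls depended on single arrays. With CLEC4C-DTR replicate 2, CLEC4C-DTR replicate 3 or control replicate 3 left out, limma called 0 of the 40. Limma's unadjusted p was below 0.05 for 21, 25 and 21 of them, all toward lower values. Over all 19938 genes it was below 0.05, in either direction, for 4457, 4447 and 3788. Leaving out control replicate 1 left 1 call, Myl1, and leaving out control replicate 2 gave 4, those of Mylpf and Trdn among the 11 and of Myh2 and Myl2 beside them. Without CLEC4C-DTR replicate 1, all 11 passed again beside Acta1, Tnnc2 and Ttn. Over all 19938 genes, limma called 177, 38 and 18 lower without CLEC4C-DTR replicate 2, CLEC4C-DTR replicate 3 and control replicate 3. It called 59, 489 and 1275 lower without control replicate 1, control replicate 2 and CLEC4C-DTR replicate 1. In either direction, the number of calls over all genes moved in the same fits between 67 and 2617.

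**Figure D2:**
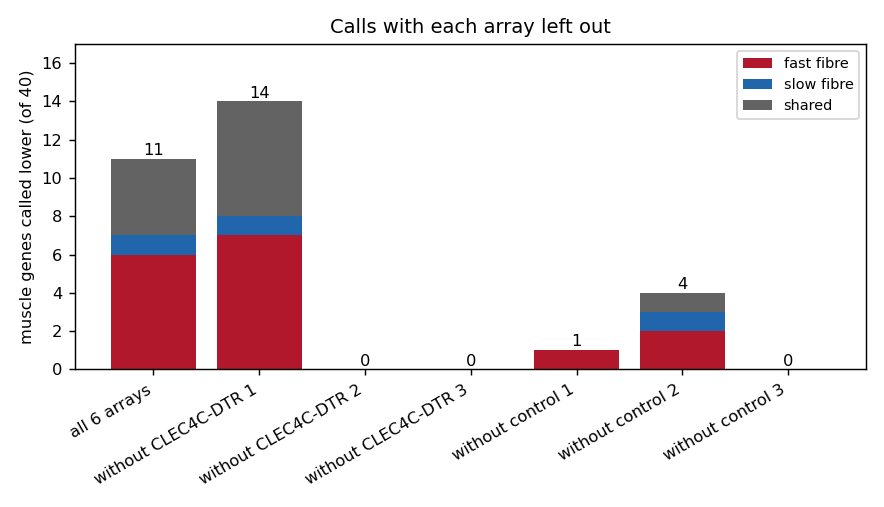
Number of the 40 muscle genes called lower (adjusted p under 0.05, limma) with all 6 arrays and with each array left out in turn, stacked by fibre class. The count was 11 with all arrays, 14 without CLEC4C-DTR replicate 1 and 0 to 4 without any other array. Over all genes, 860 were called lower with all arrays and 18 to 1275 with an array left out.

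Promoters are shown for 5 of the 40 genes, called and not called, from RefSeq (build GRCm38.p6), as 250 bases before to 50 bases after the annotated start. Mylpf had the largest fall, Myh1 and Myh4 are neighbouring fast myosin genes of chromosome 11, Acta1 encodes the sarcomeric actin, and Des is a muscle gene whose level hardly differed. Capitals mark the letters of 5 motifs: the E-box CAGCTG bound by myogenic factors such as MyoD, the MCAT motif CATTCC, the MEF2 motif, the CArG box and TATAAA. All were searched on both strands except TATAAA. The windows lie at chr7:127211358-127211657 (plus strand), chr11:67199852-67200151 (plus), chr11:67237562-67237861 (plus), chr8:123894726-123895025 (minus) and chr1:75360042-75360341 (plus), and each reads 5′ to 3′ on the strand of its gene.
Mylpf: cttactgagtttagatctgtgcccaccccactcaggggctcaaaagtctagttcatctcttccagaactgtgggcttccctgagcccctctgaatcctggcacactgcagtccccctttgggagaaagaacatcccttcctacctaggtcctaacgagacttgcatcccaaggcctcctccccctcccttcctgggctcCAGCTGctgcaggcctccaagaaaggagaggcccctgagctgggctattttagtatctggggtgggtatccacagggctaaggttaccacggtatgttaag
Myh1: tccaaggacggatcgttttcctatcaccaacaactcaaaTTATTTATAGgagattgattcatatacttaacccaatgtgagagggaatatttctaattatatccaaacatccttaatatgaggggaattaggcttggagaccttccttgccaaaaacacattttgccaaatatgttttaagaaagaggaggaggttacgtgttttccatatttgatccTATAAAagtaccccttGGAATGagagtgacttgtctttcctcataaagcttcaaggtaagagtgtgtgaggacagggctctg
Myh4: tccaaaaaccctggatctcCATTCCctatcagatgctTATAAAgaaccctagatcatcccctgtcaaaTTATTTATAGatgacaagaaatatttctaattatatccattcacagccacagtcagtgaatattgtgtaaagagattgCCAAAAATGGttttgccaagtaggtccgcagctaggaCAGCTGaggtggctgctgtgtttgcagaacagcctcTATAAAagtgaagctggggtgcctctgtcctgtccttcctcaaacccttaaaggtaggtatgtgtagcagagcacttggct
Acta1: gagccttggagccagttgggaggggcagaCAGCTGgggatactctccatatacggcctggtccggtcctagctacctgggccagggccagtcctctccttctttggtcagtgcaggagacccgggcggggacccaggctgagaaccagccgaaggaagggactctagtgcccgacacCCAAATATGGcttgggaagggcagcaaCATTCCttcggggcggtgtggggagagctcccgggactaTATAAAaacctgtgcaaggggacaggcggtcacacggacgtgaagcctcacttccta
Des: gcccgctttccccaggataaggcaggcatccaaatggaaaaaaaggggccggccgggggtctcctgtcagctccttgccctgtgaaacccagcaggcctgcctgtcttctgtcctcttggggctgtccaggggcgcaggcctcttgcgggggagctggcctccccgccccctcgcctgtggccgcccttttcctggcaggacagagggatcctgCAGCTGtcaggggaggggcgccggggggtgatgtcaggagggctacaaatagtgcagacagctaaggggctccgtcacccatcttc
The window of Myh4 held all 5 motifs, Acta1 lacked a MEF2 match, and Myh1 held MCAT, MEF2 and TATAAA. Myh1 and Myh4 also shared an unbroken run of 20 bases, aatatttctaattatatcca, that starts at base 86 of the first window and base 88 of the second. In the windows of Mylpf and Des, which had the largest fall and almost no difference, the same single motif was matched, the E-box.

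A promoter window was found for 31 of the 40 genes. The E-box CAGCTG was present in 16 of the 31 (51.6%), against 18.3% of all 27025 genes with a window. The MCAT motif CATTCC was present in 12 (38.7%), against 16.6% of all genes. A MEF2 match was present in 6 (19.4%), against 3.7%, and a CArG box in 3 (9.68%), against 1.81%. TATAAA was present in 5 (16.1%), against 9.77%. Among the 7 called genes with a window, 5 held the E-box, and so did 11 of the 24 that were not called. These are matches of letters in short windows, and no binding was measured.

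Of the 4 myosin heavy chains, the motor proteins that set the speed of a fibre, only Myh1 passed the test. Myh1, the heavy chain of fast type IIx fibres, had log2 values of 8.96, 8.42 and 8.95 in CLEC4C-DTR ears and 9.30, 9.78 and 9.85 in controls. The groups did not overlap, and Myh1 fell 1.83-fold (log2 -0.87, SE 0.19, adjusted p = 0.0319). Myh4, the heavy chain of the fastest type IIb fibres, had 9.33, 8.68 and 9.26 in CLEC4C-DTR ears and 9.32, 9.35 and 10.40 in controls. One CLEC4C-DTR value lay inside the control range, and control replicate 3 stood far above the other two. The difference of Myh4 was -0.60 with an SE of 0.30 (adjusted p = 0.242), and -0.25 without control replicate 3. Myh2, the heavy chain of fast oxidative type IIa fibres, had 8.25, 8.10 and 8.11 in CLEC4C-DTR ears and 8.75, 8.40 and 9.0 in controls, groups that did not overlap. Its difference of -0.56 missed the threshold (SE 0.15, adjusted p = 0.0512). Myh7, the heavy chain of slow fibres and also of the heart, had 6.04, 5.80 and 6.24 in CLEC4C-DTR ears and 6.02, 6.30 and 6.36 in controls. The groups of Myh7 overlapped, with a difference of -0.20 (SE 0.14, adjusted p = 0.399).

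The myosin light chains, small proteins that clasp the neck of the myosin head, all had lower values with no overlap between the groups. Such a pattern was found in 19.0% of all genes. The 2 fast light chains fell. Mylpf, the regulatory light chain of fast fibres, had 9.40, 9.11 and 9.15 in CLEC4C-DTR ears and 10.01, 10.07 and 10.77 in controls. The gap between the groups exceeded the spread within CLEC4C-DTR ears. Mylpf fell 2.09-fold (log2 -1.06, SE 0.20, adjusted p = 0.0213), and it was the only one of the 40 genes called with at least a 2-fold difference, where 0.376% of all genes were called lower by that much. Myl1, the essential light chain of fast fibres, had 8.24, 8.03 and 8.20 in CLEC4C-DTR ears and 8.53, 8.78 and 8.98 in controls, and it fell 1.52-fold (adjusted p = 0.0279). Myl2, the regulatory light chain of slow fibres and ventricle, had 8.19, 8.10 and 8.08 in CLEC4C-DTR ears and 8.63, 8.36 and 9.13 in controls. The 3 CLEC4C-DTR values of Myl2 lay close together and the controls were spread, and the difference of -0.58 did not pass (SE 0.18, adjusted p = 0.0755). Myl3, the essential light chain of slow fibres and ventricle, differed by -0.42 (adjusted p = 0.0867).

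Troponin, the calcium switch of the thin filament, has a calcium-binding, an inhibitory and a tropomyosin-binding subunit, each with a fast and a slow form. Of the 6 genes, 3 fell and 3 did not pass. Tnnt3, the fast tropomyosin-binding subunit, had 10.63, 10.25 and 10.55 in CLEC4C-DTR ears and 10.90, 11.13 and 11.41 in controls, and fell 1.59-fold (adjusted p = 0.0347). Tnni2, the fast inhibitory subunit, had 9.80, 9.33 and 9.75 in CLEC4C-DTR ears and 10.07, 10.26 and 10.65 in controls. Tnni2 fell 1.62-fold with an adjusted p of 0.0461. This call was lost when arrays were centred on their medians (adjusted p = 0.0508). It was also lost when limma moderated variances with both a trend and its robust option (adjusted p = 0.0502). Tnni1, the slow inhibitory subunit, had 6.69, 6.51 and 6.74 in CLEC4C-DTR ears and 6.96, 7.20 and 7.05 in controls. Its values were tight in both groups, and it was the only slow gene that fell (difference -0.42, SE 0.10, adjusted p = 0.0388). With the replicate number as a block, Tnni1 was no longer called, and no slow gene was.

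The other 3 troponins did not pass. Tnnt1, the slow tropomyosin-binding subunit, differed by -0.62 (SE 0.19, adjusted p = 0.0767), and Tnnc2, the fast calcium-binding subunit, by -0.54 (SE 0.16, adjusted p = 0.0703). Tnnc1, the calcium-binding subunit of slow fibres and heart, had 7.87, 7.57 and 8.11 in CLEC4C-DTR ears and 8.05, 8.79 and 8.53 in controls. Its groups overlapped through CLEC4C-DTR replicate 3 and control replicate 1, and the difference of -0.61 had an adjusted p of 0.0958.

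Of the other thin filament genes, Neb and Tpm1 fell. Neb encodes nebulin, the giant protein that runs along the thin filament, and its values were 9.72, 9.30 and 9.65 in CLEC4C-DTR ears and 10.10, 10.23 and 10.57 in controls. Neb fell 1.67-fold (log2 -0.74, SE 0.15, adjusted p = 0.028). Tpm1, a tropomyosin that smooth muscle and other cells make as well, had 10.19, 9.72 and 9.96 in CLEC4C-DTR ears and 10.45, 10.49 and 10.75 in controls, and fell 1.52-fold (adjusted p = 0.0341). Acta1, the skeletal actin, had 10.43, 9.89 and 10.26 in CLEC4C-DTR ears and 10.48, 10.91 and 10.88 in controls. The highest CLEC4C-DTR value of Acta1 lay just under the lowest control value, and the difference of -0.57 did not pass (SE 0.17, adjusted p = 0.0702). Tpm2, a tropomyosin of slow and smooth muscle, differed by -0.18 with overlapping groups (adjusted p = 0.315).

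None of the 7 genes of the Z disc and the sarcomere scaffold was called. Ttn, the giant spring titin, had 9.68, 9.24 and 9.60 in CLEC4C-DTR ears and 9.86, 10.10 and 10.36 in controls. The groups did not overlap, and the difference of -0.60 just missed the threshold (SE 0.16, adjusted p = 0.0516). Myot, the Z disc protein myotilin, differed by -0.62 (adjusted p = 0.093), and the calsarcin Myoz1 of fast fibres by -0.33 (adjusted p = 0.158). The alpha-actinins, which anchor actin in the Z disc, differed by -0.45 for the fast form Actn3 (adjusted p = 0.228) and by -0.30 for Actn2 (adjusted p = 0.247). The difference of Actn3 was -0.17 without control replicate 3, and that of Actn2 was -0.14 without control replicate 2.

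The intermediate filament desmin and the actin-binding repeat protein Xirp2 stood apart from the other scaffold genes. Des had 7.96, 7.48 and 7.91 in CLEC4C-DTR ears and 7.69, 7.85 and 8.01 in controls, with a difference of -0.07 (SE 0.14, adjusted p = 0.802). Xirp2 had 8.61, 8.43 and 8.76 in CLEC4C-DTR ears and 9.04, 8.24 and 8.56 in controls, with a difference of -0.02 (SE 0.19, adjusted p = 0.97). In both genes the groups interleaved, and the sign turned when single arrays were left out. Des is also made by smooth muscle.

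Neither of the 2 myosin binding proteins of the thick filament was called. Mybpc1, classed here with slow fibres, had a difference of -0.54 with no overlap (SE 0.15, adjusted p = 0.0556). Mybpc2, the fast form, had 5.95, 5.86 and 5.99 in CLEC4C-DTR ears and 5.92, 5.79 and 6.73 in controls. Only control replicate 3 was high, so that its difference of -0.22 (adjusted p = 0.576) became 0.07 without that array.

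Among the 9 genes of calcium handling, Casq1 and Trdn fell and 7 did not pass. Casq1, classed here with fast fibres, encodes a calsequestrin, a protein that stores calcium in the sarcoplasmic reticulum. Its values were 8.06, 7.50 and 7.75 in CLEC4C-DTR ears and 8.44, 8.72 and 9.15 in controls. Casq1 fell, with a log2 difference of -1.00 (SE 0.20, adjusted p = 0.0259). Trdn encodes triadin, which ties calsequestrin to the release channel, and had 9.12, 8.69 and 9.01 in CLEC4C-DTR ears and 9.79, 9.65 and 10.28 in controls. Trdn fell 1.96-fold (SE 0.18, adjusted p = 0.0206), the lowest adjusted p of the 40 genes. It was the only one of the 40 with several probe sets, 19 in all. Of the 19, 17 had lower means in CLEC4C-DTR ears and 2 did not, with differences of -1.08 to 0.30. In 11 all CLEC4C-DTR values lay below all control values, a pattern of 19.0% of all genes at their brightest probe sets. Of the 12 brighter than the median gene, all 12 had lower means in CLEC4C-DTR ears, by 0.34 to 1.07 on the log2 scale, and in 9 the groups did not overlap. With the most variable of its probe sets in place of the brightest, Trdn did not pass (adjusted p = 0.0561).

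The calcium pump, buffer and channel genes did not pass. Atp2a1, the calcium pump of fast fibres, differed by -0.60 (adjusted p = 0.107) and Pvalb, the calcium buffer of fast fibres, by -0.78 (SE 0.28, adjusted p = 0.12). Pvalb had 8.45, 8.01 and 8.27 in CLEC4C-DTR ears and 8.71, 8.61 and 9.74 in controls, so the groups were apart and control replicate 3 was far above the rest. Without that array the difference of Pvalb was -0.42. Casq2, a calsequestrin of slow fibres and heart, differed by -0.23 (SE 0.08, adjusted p = 0.102). The release channel Ryr1, its voltage sensor Cacna1s and the accessory subunit Cacng1 differed by -0.25, -0.15 and -0.27 (adjusted p = 0.363, 0.371 and 0.161). Sln, the small peptide sarcolipin that inhibits the calcium pump, had 6.96, 6.81 and 6.99 in CLEC4C-DTR ears and 6.63, 6.94 and 6.78 in controls. It was the only gene with a higher mean in CLEC4C-DTR ears, by 0.14 (SE 0.10, adjusted p = 0.443), and the groups overlapped.

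Of the genes of fuel and oxygen supply, Mb fell and the other 3 did not pass. In each of the 4 all CLEC4C-DTR values lay below all control values, a pattern found in 19.0% of all genes. Mb, the oxygen store myoglobin of oxidative fibres, had 9.16, 8.86 and 9.08 in CLEC4C-DTR ears and 9.46, 9.68 and 9.95 in controls, and fell 1.59-fold (SE 0.14, adjusted p = 0.0277). Eno3, the muscle enolase of glycolysis, differed by -0.64 and lay at the threshold (SE 0.16, adjusted p = 0.0503). Ckm, the muscle creatine kinase that regenerates ATP, had 8.19, 7.71 and 8.03 in CLEC4C-DTR ears and 8.22, 8.38 and 8.72 in controls, values that nearly met (difference -0.46, adjusted p = 0.112). Pygm, the muscle glycogen phosphorylase, differed by -0.36 (adjusted p = 0.132).

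**Figure D3:**
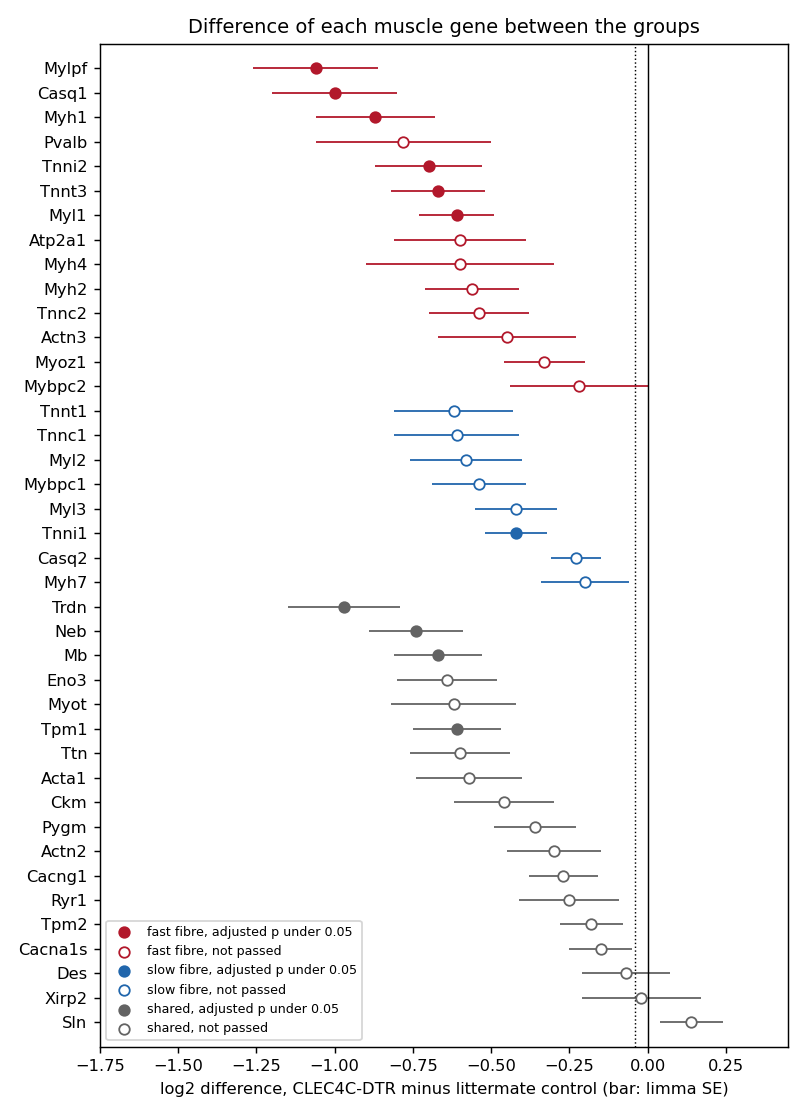
Log2 difference (CLEC4C-DTR minus littermate control) of each of the 40 muscle genes with limma's standard error as bars, coloured by fibre class; filled points passed an adjusted p of 0.05, and the dotted line marks the median of all genes at -0.04. Fast genes range from -1.06 for Mylpf to -0.22 for Mybpc2, slow genes from -0.62 to -0.20, and shared genes from -0.97 for Trdn to 0.14 for Sln.

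By class, 6 of 14 fast genes fell, 1 of 8 slow genes and 4 of 18 shared genes, against 4.31% of all genes. At limma's unadjusted p below 0.05, 11 of the 14 fast, 7 of the 8 slow and 11 of the 18 shared genes were lower, against 15.1% of all genes. All CLEC4C-DTR values lay below all control values in 11 fast, 6 slow and 10 shared genes, against 19.0% of all genes. The median differences were -0.60, -0.48 and -0.41. The slow genes were dimmer, with a median percentile of mean level of 67.6, beside 90.4 for fast and 86.7 for shared genes. The mean level of the fast genes minus that of the slow genes was 1.42, 1.28 and 1.22 in CLEC4C-DTR replicates 1, 2 and 3, and 1.47, 1.26 and 1.76 in control replicates 1, 2 and 3. This contrast averaged 1.31 ± 0.10 in CLEC4C-DTR ears and 1.50 ± 0.25 in controls (SD, n = 3 each), so the 0.19 by which it was lower lay within the control spread, and the values of the groups overlapped. Control replicate 3 alone was high. Fast minus shared genes gave 0.06 ± 0.03 in CLEC4C-DTR ears and 0.30 ± 0.20 in controls (SD, n = 3 each), without overlap, and slow minus shared gave -1.24 ± 0.07 and -1.20 ± 0.06. No p is given for these contrasts, since the genes were chosen with results of these data known and 3 arrays against 3 could not reach an exact permutation p below 0.1. Whether fast and slow fibre genes differed in their response was not tested.

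Other genes of skeletal muscle had lower values too. In a further list of 29 measured muscle genes, 8 fell, none rose and 21 did not pass, against 4.31% of all genes called lower. The median difference of the list was -0.50, beside -0.56 for the 40 genes. Of its first 3 genes, Tcap, a titin cap of the Z disc, differed by -0.63 (adjusted p = 0.0855), the Z disc protein Ldb3 by -0.26 (adjusted p = 0.25) and the M band protein Myom1 by -0.59 (adjusted p = 0.065). The 8 that fell, named after their values were seen, were Lmod2, Lmod3, Myoz2, Cox7a1, Smpx, Hrc, Jph1 and Jph2. Myoz2, the calsarcin of slow fibres and heart, had the smallest spread of these and fell, with a difference of -0.68 (SE 0.09, adjusted p = 0.0119). Hrc, a calcium-binding protein of the reticulum that partners triadin, differed by -0.72 (adjusted p = 0.0492), and the junctophilins Jph1 and Jph2, which hold the reticulum to the surface membrane, by -0.63 and -0.55.

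Lists of genes that control muscle formation and wasting had medians nearer to 0. Their genes were also dimmer than the 40, whose median percentile of mean level was 85.6. It was 46.6 for myogenic regulators, 42.6 for genes of embryonic and regenerating fibres and 69.6 for genes of wasting. Among 13 measured myogenic regulators 1 fell and none rose, against 4.31% and 5.01% of all genes, and the median difference was -0.07. At limma's unadjusted p below 0.05, 4 of the 13 were lower and 1 higher, against 15.1% and 12.2% of all genes. Pax7 of muscle stem cells differed by -0.07 (adjusted p = 0.696), Myf5 by -0.28 (adjusted p = 0.136) and Myod1 by 0.11 (adjusted p = 0.538). The gene that fell, named after its values were seen, was Mef2c, which other cell types also express (difference -0.63, adjusted p = 0.0386). Of 8 genes of embryonic and regenerating fibres 1 fell, the embryonic heavy chain Myh3 (difference -0.66, adjusted p = 0.0238), with a list median of -0.22. Myh8, the perinatal heavy chain, differed by -0.09 (adjusted p = 0.568), and Mymk, the myoblast fusion protein, by -0.13 (adjusted p = 0.495). Among 11 genes of muscle wasting and stress none fell and 1 rose, the stress gene Gadd45a (named after its values were seen), which many cells induce, by 1.41 (adjusted p = 0.0335), and the median was -0.01. The ubiquitin ligases of wasting muscle, Fbxo32, Trim63 and Fbxo40, differed by -0.20, 0.09 and -0.01 (adjusted p = 0.469, 0.82 and 0.976).

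Markers of other tissues in the ear were read on the same arrays. Over all genes, limma's unadjusted p was below 0.05 toward lower values for 15.1% and toward higher values for 12.2%. None of 8 smooth muscle markers passed in limma; 2 were lower and 1 higher at unadjusted p values below 0.05, with a median of -0.12. Their mean log2 level was 6.34 to 6.54 in CLEC4C-DTR ears and 6.53 to 6.64 in controls. Acta2, the smooth muscle actin, differed by -0.38 (adjusted p = 0.093), the smooth muscle myosin Myh11 by -0.26 (adjusted p = 0.282) and the calponin Cnn1 by -0.10 (adjusted p = 0.522). None of 8 cardiac markers passed in limma; 2 were lower at unadjusted p values below 0.05, with a median of -0.17. Their mean level was 6.04 to 6.09 in CLEC4C-DTR ears and 6.09 to 6.42 in controls. Myh6, the atrial heavy chain, averaged 4.62 ± 0.13 in CLEC4C-DTR ears and 4.70 ± 0.15 in controls (SD, n = 3 each), the hormone gene Nppa differed by -0.24 (adjusted p = 0.385) and the troponin Tnnt2 by -0.47 (adjusted p = 0.0596).

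Some adipocyte and cartilage markers fell, where 4.31% of all genes were called lower. Of 7 adipocyte markers 3 fell, none rose, and the median was -0.74. Adipoq, the hormone adiponectin, differed by -1.38 (SE 0.28, adjusted p = 0.0263), the lipid droplet proteins Plin1 and Cidec differed by -0.55 and -0.65 (adjusted p = 0.068 and 0.226), and Fabp4 and Pparg, named after their values were seen, also fell. The mean level of the list was 6.15 to 6.48 in CLEC4C-DTR ears and 6.89 to 7.64 in controls. It was lowest in CLEC4C-DTR replicate 2 and highest in control replicate 3. The same held for the fast, slow and shared genes, the further muscle list, and the smooth muscle, cartilage and fibroblast markers. Of 8 cartilage markers 2 fell, aggrecan (Acan, difference -0.69, adjusted p = 0.0496) and Cnmd, named after its values were seen (difference -0.93, adjusted p = 0.0274). The median difference of the 8 cartilage markers was -0.29. In 6 of them all CLEC4C-DTR values lay below all control values, against 19.0% of all genes. At limma's unadjusted p below 0.05, 4 of the 8 were lower, against 15.1% of all genes. The mean level of the cartilage list was 6.34 to 6.66 in CLEC4C-DTR ears and 6.76 to 6.94 in controls. The collagens Col2a1 and Col9a1 of cartilage differed by -0.10 and -0.30 (adjusted p = 0.437 and 0.184).

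Few fibroblast and keratinocyte markers were called, and neutrophil markers rose. Over all genes, 4.31% were called lower and 5.01% higher, and 15.1% were lower and 12.2% higher at limma's unadjusted p below 0.05. Of 6 fibroblast markers none fell and 1 rose, Pdgfra (named after its values were seen). At limma's unadjusted p below 0.05, 3 of the 6 were lower and 1 was higher. The median of the list was -0.23, and its mean level was 9.44 to 9.62 in CLEC4C-DTR ears and 9.51 to 9.77 in controls. Col1a1, Col1a2 and Col3a1, collagens of the dermis, differed by -0.26, -0.41 and 0.00 (adjusted p = 0.198, 0.0701 and 0.993). None of 5 keratinocyte markers passed in limma; 1 was lower at an unadjusted p below 0.05, with a median of -0.15 and a mean level of 10.98 to 11.65 in CLEC4C-DTR ears and 11.36 to 11.59 in controls. Krt5, Krt14 and Krt1 differed by -0.15, 0.02 and 0.46 (adjusted p = 0.378, 0.884 and 0.402). All 7 neutrophil markers rose. The calprotectin genes S100a8 and S100a9 differed by 1.61 and 1.49 (adjusted p = 0.00937 and 0.00802), and Retnlg by 2.92 (adjusted p = 0.0126). The list had a median of 2.27 and a mean level of 9.61 to 10.96 in CLEC4C-DTR ears and 7.96 to 8.35 in controls. Against the control mean, this list stood at 1.40, 2.75 and 2.55 in CLEC4C-DTR replicates 1, 2 and 3, and the array with the highest neutrophil mean was also the one with the lowest muscle mean. The part of fat, cartilage, infiltrating cells or the piece of ear taken in the difference of the muscle genes was not tested.

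**Figure D4:**
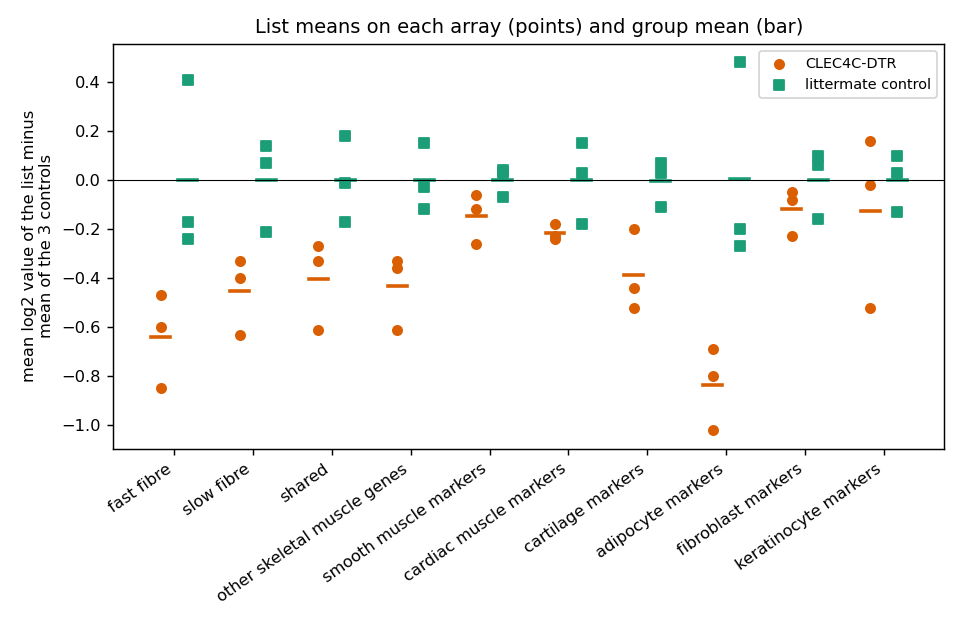
Mean log2 value of each gene list on each array minus the mean of the 3 littermate controls, with circles for CLEC4C-DTR, squares for littermate controls and bars for group means. The fast genes stood at -0.47, -0.85 and -0.60 in CLEC4C-DTR ears and at -0.24, -0.17 and 0.41 in controls; neutrophil markers are not drawn.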

How the data were processed

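The authors deposited log2 values for 35556 probe sets of Affymetrix mouse gene arrays; the design text names RMA as the method, and that the scale is log2 was read from the values. RMA in general corrects background, equalises distributions between arrays and summarises probes, which can shrink differences of dim genes and remove shifts shared by most genes. Its software was not stated, and mm8 appears in the submitters' processing notes with no role. Array medians lay between 6.17 and 6.23, and no pair of arrays was identical. The number of arrays, 3 per group, limits precision.

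The 21789 probe sets annotated to 1 gene were kept, and of several for a gene the brightest, which gave 19938 genes. The groups were compared with limma 3.58.1 (R 4.3.3; lmFit and eBayes, two-sided, no covariate, Benjamini-Hochberg over all genes). An exact permutation test of 1 gene could not go below 0.1. On simulated arrays limma recovered 36 of 50 genes lowered by 1, 29 of 50 lowered by 0.5 and 45 of 50 raised by 1 (log2). The simulated noise was independent between genes, whereas the muscle genes moved together across these arrays, so recovery here may differ. Alternatives were other scalings, filters, variance models, probe set rules, a replicate block and each array left out.

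The members and lists were chosen with earlier results of these data known. All 40 members are named, as are the first 3 measured genes of each other list; others are marked. Each array is a separate mouse. Promoters and gene names came from RefSeq tables of GRCm38.p6. Figures used matplotlib 3.10.9.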

Additional observations from a re-analysis of the deposited data

How the results depend on the processing

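The number of the 40 muscle genes called was 11 with all arrays. It was 10 to 15 under other scalings, filters, array weights, probe set rules, and moderation with both a variance trend and limma's robust option. Without moderation of variances limma called 0 genes in all, with 4387 at an unadjusted p under 0.05, and 0 of the 40, with 16 at an unadjusted p under 0.05. With single arrays left out, between 67 and 2617 genes and between 0 and 14 of the 40 were called, and the cause was not tested. Called slow genes numbered 1 with all arrays and 2 after a further quantile normalisation or either filter on dim genes. With the replicate block 14 of the 40 passed, with 7 shared genes in place of 4 and 0 slow genes. The labels do not say that replicate numbers pair mice, and same-numbered arrays had correlations of deviations from their group means of -0.06, 0.217 and 0.104 across genes, so the number was not taken as a pairing. Eno3, Mybpc1, Myh2 and Ttn passed after a further quantile normalisation and under both filters. Median centring gave 1150 higher and 644 lower calls over all genes, against 998 and 860 as deposited. The median difference of the 40 was -0.56 and ranged over single arrays left out from -0.65 to -0.41, with -0.76 to -0.42 for fast, -0.56 to -0.40 for slow and -0.51 to -0.32 for shared genes. Signs turned for 3 genes, none of them called. Xirp2 was at 0.0297 under median centring, and with single arrays left out it ranged from -0.2003 to 0.197, above 0 at 0.0692 without CLEC4C-DTR replicate 2 and at 0.197 without littermate control replicate 1. Des ranged from -0.1583 to 0.0814, the highest value without CLEC4C-DTR replicate 2, and was at 0.0106 without littermate control replicate 3. Mybpc2 was at 0.0736 without littermate control replicate 3. The table holds no background measure, so dim genes such as Casq2 and Myh7 could not be called present or absent.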

Other observations

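Genes outside the 40 were ranked by how closely their values followed the mean of the 40 over the 6 arrays. By Pearson correlation, as a description over 6 arrays that share one normalisation, the 10 closest of 19898 genes were Ebf1, Saysd1, Hrc, Gpa33, Hspb11, Cd34, Cyp39a1, Hnrnpul2, Flacc1 and Lamb2, with r of 0.994 to 0.999. Only Hrc was in the further muscle list. Ebf1, a transcription factor of B cells and adipocytes, differed by -0.57 (limma adjusted p = 0.0589), Cd34, a surface protein of vessels and progenitors, by -0.40 (adjusted p = 0.0965), and Lamb2, a laminin of basement membranes that also lies at the synapse of nerve and muscle, by -0.39 (adjusted p = 0.0589). Of the 40 genes themselves, Sln and Xirp2 had r of -0.21 and -0.05 with the mean, and the median r was 0.94, in a mean of which each gene is a part.

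The muscle genes varied more between mice of one group than most genes. The standard deviation within groups lay at a median percentile of 89.5 of all genes, with the fast genes at 94.8, the shared genes at 88.4 and the slow genes at 84.8. Myh4 reached 98.7, whereas Tnni1, Cacna1s and Casq2 stood at 46.9, 41.9 and 3.9. Adipocyte markers lay at 97.2, keratinocyte markers at 91.1 and neutrophil markers at 99.6.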
